A study of Homo sapiens with 6 samples.

Results

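Genes of the BMP and TGF-beta pathways that send, receive or restrain their own signal were followed in LoVo cells treated with DCC-2036. The set held 10 genes of 19223 gene symbols in the table, chosen by name: the ligands BMP2, BMP4 and TGFB1, the receptor TGFBR2, the inhibitory proteins SMAD6, SMAD7 and BAMBI, and the target genes ID1, ID2 and ID3. All 10 had at least 1 transcript in the table, and each gene was read from the transcript whose mean over the 6 libraries was highest. Only genes that reached 10 in 3 or more libraries were tested, which 9 members did and BMP2 did not.

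RNA was sequenced from LoVo, an established human cell line of colorectal adenocarcinoma, in 3 Control libraries and 3 DCC-2036 libraries. Control cells had vehicle without the compound and treated cells had 2.5 μM DCC-2036, a tyrosine kinase inhibitor also called rebastinib, both for 48 h by the labels. The legend of the paper's figure gives a shorter time, and the paper names another culture medium than the labels. With 1 line, 1 dose and 1 time, and with labels that do not say whether the replicates were separate cultures, the p-values measure the spread between these libraries, which may be technical.

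BMP and TGF-beta ligands bind type II receptors, which activate type I receptors that phosphorylate receptor SMADs, and these enter the nucleus with SMAD4 and change transcription. Among the genes so induced are brakes on the same pathway, SMAD6 and SMAD7 inside the cell and the pseudoreceptor BAMBI at its surface, as well as the ID genes, whose proteins bind E proteins and keep them off DNA. In the gut, BMP signals are known to favour differentiation over stem cell renewal, and colorectal cancers often lose parts of the TGF-beta branch.

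The values are a signal per transcript, not in whole numbers and taken here as adjusted to a common depth, so the reads behind each value are unknown. Transcripts above 0 numbered 37162, 37066 and 36928 in Control, against 39309 in each DCC-2036 library. Low genes shared fractional values in DCC-2036, such as NODAL and DLX5, both at 1.03, 0.00702 and 0.0139. Whether the groups were adjusted differently was not tested, and such a difference could not be told apart from the treatment. Column totals were 38997229, 39956227 and 40587145 in Control against 43279603, 45957597 and 48023306 in DCC-2036. The DCC-2036 libraries differed more among themselves than the Control libraries did. Over the tested genes, the SD of the log2 ratio between libraries was 0.29, 0.32 and 0.30 for the Control pairs and 0.40, 0.65 and 0.46 for the DCC-2036 pairs, the widest being that of replicates 1 and 3. DCC-2036 replicate 3 lay farthest from the Control mean, with a Pearson correlation across genes of 0.896, against 0.942 for replicate 1 and 0.924 for replicate 2. Genes are not independent replicates, and the correlation describes these libraries only.

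Of the 12 colorectal epithelial markers, 7 passed the filter. KRT8 was the most abundant of them, and EPCAM, KRT18, KRT19, KRT20, CDH1 and CDX2 also passed. KRT8 (log2 fold change 0.84, adjusted p = 0.00287, limma) and CDH1 (1.10, adjusted p = 0.000354, limma) rose, and KRT20 fell from 53.1 ± 10.3 (SD, n = 3) to 23.4 ± 5.25 (-1.15, adjusted p = 0.00427, limma). CDX1 was listed at 0 in every library, and CEACAM5, VIL1, CDH17 and LGALS4 did not exceed 7.23 in any library. These 5 are markers by which the labelled origin would be known, and the identity of the line was taken from the labels and not tested. The summed epithelial signal was 104485, 108198 and 115000.4 in Control against 148349, 163491 and 188449.7 in DCC-2036. Without KRT8 the sum was 48882, 48139 and 50867 in Control against 55425, 57099 and 63055 in DCC-2036, so most of the difference came from KRT8. The part of these markers in the results was not examined.

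Most markers of other cell types did not pass the filter. COL1A1, with means of 376 in Control and 457 in DCC-2036, and CD68, with 245 and 240.4, were the most abundant. Of 10 fibroblast markers, 2 passed the filter, and the sum over the list was 475, 415 and 370.5 in Control against 566, 456 and 554 in DCC-2036, led by COL1A1. Without COL1A1 the sum was 95.5, 21.4 and 17.2 in Control against 137, 36.4 and 34.3 in DCC-2036, highest in replicate 1 of both groups. POSTN stood at 27.8 and 41.0 in these 2 libraries and at most at 0.438 in the other 4. Of 7 endothelial markers 1 passed the filter, VWF, with sums of 18.9, 15.9 and 18.6 against 43.4, 16.5 and 25.9, and EMCN was listed at 0. Of 9 leukocyte markers 1 passed, CD68, with sums of 233, 279.6 and 268 against 228, 258 and 313, and PTPRC and MS4A1 were listed at 0. The part of these markers in the results was not tested.

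Of the 9 tested members, 3 were called higher with DCC-2036 and 2 lower (limma, two-sided, limit of 0.01 on the p-value adjusted over all 12725 tested genes). Among all tested genes, 19.2% were called higher and 22.7% lower, beside 33.3% and 22.2% of the tested members, shares that rest on few genes. TGFBR2, SMAD7 and BAMBI rose to 305%, 318% and 339% of the Control mean, ID3 fell to 43.7% of it, and ID1 to 76.1%. In 7 of the 9 the values of the groups did not overlap, as was the case for 71.1% of all tested genes. The median log2 fold change was -0.18 over the tested members and -0.09 over all tested genes. In these bulk libraries, fewer cells that express a gene and less RNA per cell cannot be told apart.

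**Figure D1:**
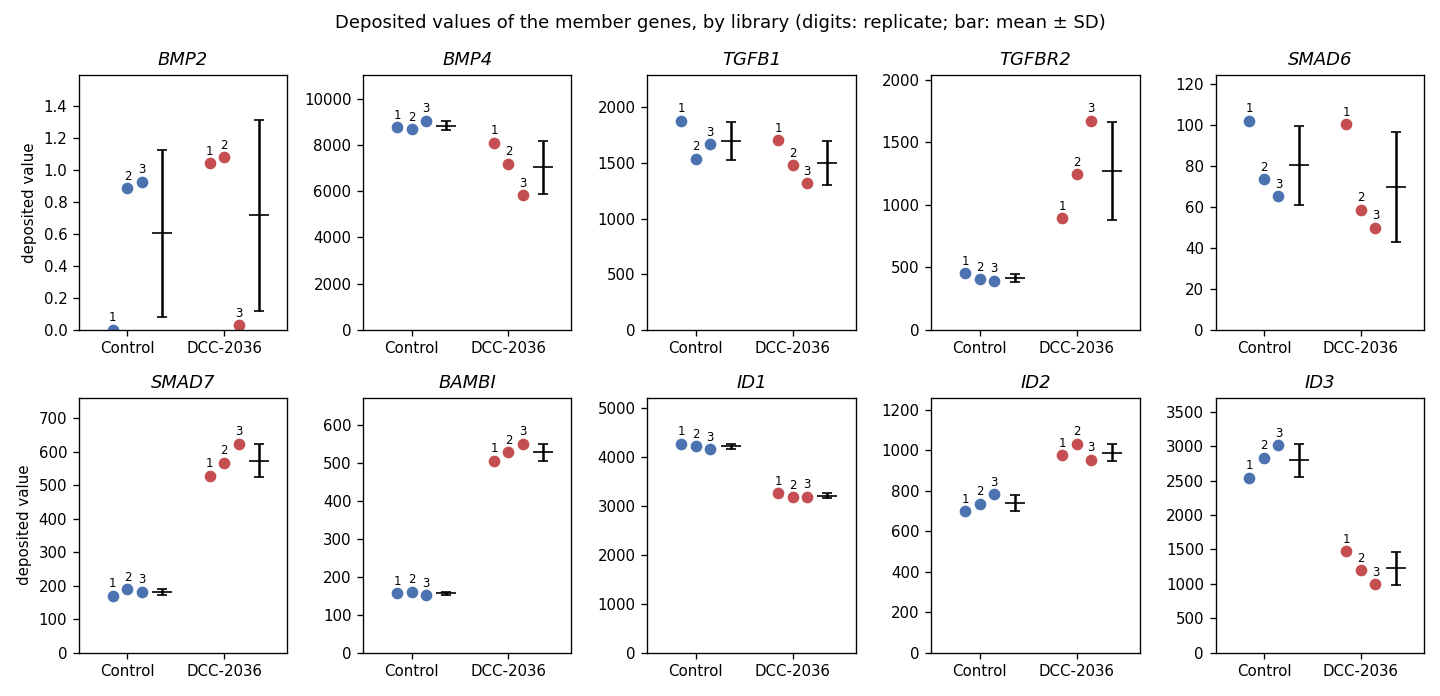
Deposited values of the 10 members in the 6 libraries, 1 panel per gene with the y axis from 0 in the unit of the table, Control in blue and DCC-2036 in red, digits for the replicate and black bars for mean ± SD (n = 3). BAMBI, SMAD7, TGFBR2 and ID2 are higher in all 3 DCC-2036 libraries than in any Control library, and ID1, ID3 and BMP4 lower. Of these, ID2 and BMP4 were not called, and BMP2 stays at or under 1.08.

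None of the ligands was called. BMP2, a ligand of the BMP branch, had values of 0, 0.884 and 0.926 in Control against 1.04, 1.08 and 0.0276 in DCC-2036. All 6 values were far under the filter, and the gene was neither tested nor given a fold change.

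BMP4, a ligand of the same branch, was the most abundant member. Its values were 8780.0, 8708 and 9059 in Control against 8116, 7194 and 5839.5 in DCC-2036, a mean of 79.7% of that in Control. On the log2(value + 1) scale the difference was -0.34 (95% interval -0.68 to -0.00, adjusted p = 0.0737, limma), which did not pass the limit. It was -0.45 without DCC-2036 replicate 1 and -0.21 without DCC-2036 replicate 3, and not called in either case. Scaling to equal column totals gave -0.53 (adjusted p = 0.035, limma), also not called. All 3 DCC-2036 values lay under the Control values without overlap, and the spread on the log2 scale was 0.24 in DCC-2036 against 0.03 in Control. Exact permutation gave a two-sided p of 0.1, which is as small as 3 against 3 libraries permit.

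TGFB1, the founding ligand of the TGF-beta branch, had values of 1879.7, 1538 and 1668 in Control against 1707, 1482 and 1317 in DCC-2036. The groups overlapped. Its log2 fold change was -0.18 (95% interval -0.51 to 0.16, adjusted p = 0.296, limma), an interval that includes 0. It was -0.10 without Control replicate 1, -0.27 without DCC-2036 replicate 1 and -0.09 without DCC-2036 replicate 3. Scaling to equal column totals gave -0.37 (adjusted p = 0.1, limma). In GENCODE 29, exons of TGFB1 overlap 3 genes on the other strand, among them TMEM91 and HNRNPUL1, and whether reads were assigned by strand is not given in the sources used here.

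TGFBR2 encodes the type II receptor that binds TGF-beta, and it is a gene with a coding repeat that is often mutated in colorectal cancers with microsatellite instability, on which RNA values do not report. Its values were 453, 402 and 393 in Control against 895, 1246 and 1672 in DCC-2036. Every DCC-2036 library was above every Control library, and the DCC-2036 values spread widely, with an SD of 0.45 on the log2 scale against 0.11 in Control. Its log2 fold change was 1.57 (95% interval 1.02 to 2.12, adjusted p = 0.00185, limma). Leaving out Control replicate 2 or 3 ended the call, with log2 fold changes of 1.54 (adjusted p = 0.0101, limma) and 1.53 (adjusted p = 0.0107, limma). Over all tested genes, 2442 were called higher and 2887 lower in the main fit. Without Control replicate 2 these counts were 942 and 1502, and without replicate 3 they were 965 and 1534. Over 17 fits, the main one and 16 alternatives to it that keep the limit of 0.01, the adjusted p-value of TGFBR2 lay between 0.000283 and 0.0107.

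The inhibitory proteins split. SMAD6, which mainly restrains BMP receptors, had low and scattered values of 102, 73.6 and 65.1 in Control against 100.3, 58.6 and 49.9 in DCC-2036. In both groups replicate 1 was the highest, and the groups overlapped. Its log2 fold change was -0.24 (95% interval -0.95 to 0.47, adjusted p = 0.497, limma), a wide interval that includes 0. Single libraries moved it, to -0.06 without Control replicate 1, -0.38 without Control replicate 3, -0.53 without DCC-2036 replicate 1, -0.15 without DCC-2036 replicate 2 and -0.04 without DCC-2036 replicate 3. Scaling to equal column totals gave -0.43 (adjusted p = 0.3, limma).

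SMAD7, which blocks type I receptors of both branches and brings ubiquitin ligases to them, had values of 170.1, 189 and 182 in Control against 529, 568 and 625 in DCC-2036. The DCC-2036 mean was 318% of the Control mean, and the lowest DCC-2036 value was far above the highest Control value. The log2 fold change was 1.66 (95% interval 1.40 to 1.92, adjusted p = 0.000216, limma), and the spread on the log2 scale was 0.08 in Control and 0.12 in DCC-2036. SMAD7 was called in all 17 fits.

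BAMBI, a membrane protein like a type I receptor but without a kinase domain, had values of 156, 159.9 and 151 in Control against 505, 528 and 549.8 in DCC-2036. This was the largest fold change of the tested members, 1.75 on the log2 scale (95% interval 1.53 to 1.98, adjusted p = 0.000186, limma), and it ranked 50 of 12725 genes by p-value. The replicates were tight, with SDs of 0.04 and 0.06 on the log2 scale. BAMBI, too, was called in all 17 fits.

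The ratios of these genes within a library do not depend on library scaling, and the pairs were chosen after the values had been seen. The log2 ratio of SMAD7 to SMAD6 was 0.74, 1.35 and 1.47 in Control against 2.39, 3.25 and 3.62 in DCC-2036, a difference of 1.90. The log2 ratio of BAMBI to SMAD7 was -0.12, -0.24 and -0.27 in Control against -0.07, -0.11 and -0.18 in DCC-2036, a difference of 0.09. These ratios restate the values above and add no test.

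**Figure D2:**
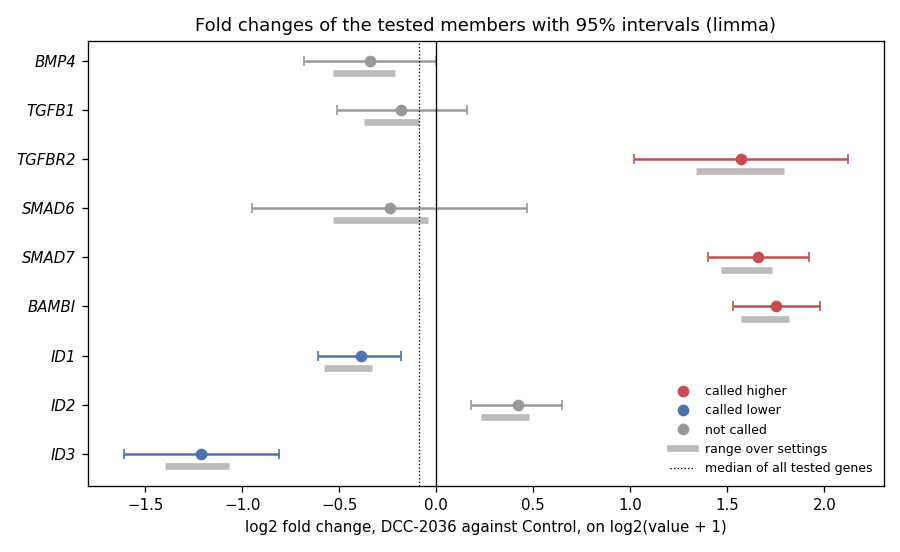
Log2 fold change of the 9 tested members on log2(value + 1), with points and thin bars for the limma estimate and its 95% interval, grey bars for the lowest to the highest estimate over 17 fits, the main one among them, and a dotted line at -0.09 for the median of all tested genes. Red marks genes called higher, blue genes called lower and grey genes not called.

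The ID genes encode helix-loop-helix proteins without a DNA-binding region. ID1 had values of 4269.7, 4223 and 4164 in Control against 3264, 3172 and 3189.8 in DCC-2036. In each group the values lay close together, with an SD of 0.02 on the log2 scale, and the DCC-2036 mean was 76.1% of the Control mean. Its log2 fold change was -0.39 (95% interval -0.61 to -0.18, adjusted p = 0.00895, limma), close to the limit. Its direction was the same in all 17 fits, but it was called in 7 of them, the main one included, the adjusted p-value lying between 0.002 and 0.0443. Leaving out any 1 Control library ended the call (adjusted p = 0.038, 0.0443 and 0.0355 without replicate 1, 2 and 3, limma), as did leaving out DCC-2036 replicate 1 (adjusted p = 0.0114, limma) or 2 (adjusted p = 0.0428, limma). In these settings, except that without DCC-2036 replicate 1, fewer genes were called over all tested genes too.

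ID2 was not called, though its values lay higher with DCC-2036. Its values were 699, 736 and 781 in Control against 975, 1032 and 952 in DCC-2036, without overlap. The log2 fold change was 0.42 (95% interval 0.18 to 0.65, adjusted p = 0.0109, limma), just outside the limit. It was called in 5 of the 17 fits, among them scaling by median of ratios (0.48, adjusted p = 0.00679, limma) and leaving out DCC-2036 replicate 3 (0.44, adjusted p = 0.00991, limma), with adjusted p-values between 0.00565 and 0.0896 over all 17. Scaling to equal column totals gave the smallest log2 fold change, 0.23 (adjusted p = 0.0896, limma), which was not called. In GENCODE 29 the exons of ID2 overlap 1 antisense gene, ID2-AS1.

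ID3 fell furthest. Its values were 2543, 2835 and 3021 in Control against 1475, 1202 and 995 in DCC-2036, with a mean of 43.7% of that in Control. Its log2 fold change was -1.21 (95% interval -1.61 to -0.81, adjusted p = 0.00153, limma), with SDs of 0.13 and 0.28 on the log2 scale. It was called in all 17 fits, with log2 fold changes from -1.40 to -1.07.

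Levels of different genes were compared per kb of transcript, with lengths from GENCODE 29. This takes the signal as not already divided by length, which the sources used here do not state. The levels and shares below rest on that assumption. ID1 stood at 3422 and ID3 at 2238 per kb in the mean of Control, against 542 for ID2 and 4.67 for ID4, a further gene of the family. The sum of the 4 ID genes was 6016, 6237 and 6367 per kb in Control and 4548, 4294 and 4085 in DCC-2036 (exact permutation p = 0.1, two-sided). Within that sum the order ID1, ID3, ID2, ID4 was the same in all 6 libraries, but the shares moved. ID3 made up 36.0% ± 2.1 (SD, n = 3) in Control and 22.6% ± 3.2 in DCC-2036, and ID2 8.7% ± 0.2 and 16.8% ± 1.0. ID1, whose own values were lower with DCC-2036, made up 55.2% ± 2.3 in Control and 60.5% ± 2.6 in DCC-2036. For the shares of ID1, ID2 and ID3 the groups did not overlap (exact permutation p = 0.1, two-sided, for each), and for that of ID4 they did.

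Per kb, BMP4 was at 4267 in Control, read from NM_130851 and not from the transcript tested above, and TGFB1 at 612, TGFBR2 at 90.4, BAMBI at 82.9, SMAD7 at 40.7, SMAD6 at 20.9 and BMP2 at 0.167. In DCC-2036 the means were 3330.0, 542, 276, 281, 129.6, 18.2 and 0.198 in the same order. These levels rest on the same assumption about length. TGFBR2 and BAMBI were next to each other in both groups, and their values per kb overlapped in DCC-2036, between 194 and 363 for TGFBR2 and between 269 and 293 for BAMBI.

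The other transcripts of the members, 13 in all, came from 4 genes and share reads with the transcripts used above, so they are no independent measure. BMP4 had 8, TGFBR2 1, SMAD7 3 and ID1 1. With all transcripts as separate rows, 4 of the 13 were called higher and 0 lower (limma), where 19.7% and 22.4% of all 32323 rows were called. The 3 of SMAD7 had log2 fold changes from 1.70 to 1.73 and the 1 of TGFBR2 had 1.57, all called, the last of them not without Control replicate 2 (1.55, adjusted p = 0.0102, limma) or 3 (1.53, adjusted p = 0.0108, limma). That of ID1 had -0.37 (adjusted p = 0.0102, limma) and those of BMP4 lay between -0.38 and -0.33 (adjusted p from 0.0651 to 0.0716, limma), not called. No member had a transcript that moved against the one used.

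Promoter windows from RefSeq (GRCh38.p14, 250 bases before to 50 after a start) were found for 9 members in 14 windows, and none was matched for BMP2. They were searched on both strands for the SMAD box CAGAC, the GC-rich SMAD motif GGCGCC, the palindromic element GTCTAGAC and the SP1 box GGGCGG. The first of these, CAGAC, was held by 7 of the 14 windows and by 45.3% of all 35116 windows in the table, GGCGCC by 2 and 19.2%, GTCTAGAC by 1 and 0.2%, and GGGCGG by 8 and 45.0%. In the members' windows, 2 matches overlapped one of another motif, both at BMP4. A match is a description of letters and not a binding site.

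Shown are stretches of 4 called members, ID1 for comparison as its window held only matches to GGGCGG, and of SMAD6 for its rare element, with matches in capitals. The stretch of BAMBI, chr10:28677271-28677341 on the forward strand, and that of ID1, chr20:31605163-31605282 on the forward strand, lie before every start of the gene in RefSeq and in GENCODE 29. That of SMAD6, chr15:66702176-66702235 on the forward strand, ends right before the RefSeq start and reaches past the start in GENCODE 29. The stretches of SMAD7, chr18:48951077-48951105, 1 of its 3 matches to CAGAC, and of ID3, chr1:23559632-23559660, both on the reverse strand, are short because their windows lie inside transcripts of GENCODE 29.
BAMBI: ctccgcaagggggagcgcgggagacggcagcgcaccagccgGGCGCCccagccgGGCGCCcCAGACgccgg
ID1: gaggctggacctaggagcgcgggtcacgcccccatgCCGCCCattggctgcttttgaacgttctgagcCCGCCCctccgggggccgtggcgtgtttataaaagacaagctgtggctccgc
SMAD6: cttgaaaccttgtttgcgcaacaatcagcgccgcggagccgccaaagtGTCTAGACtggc
SMAD7: ttcttattttgcCAGACgtctcatgcggg
ID3: ggtcttcggcgtCAGACcagccggaggaa

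The window of BAMBI, which rose, held 3 matches to GGCGCC and 2 to CAGAC, and that of SMAD6, whose values overlapped, held the 1 match to GTCTAGAC, which begins 12 bases before the RefSeq start and lies across the start in GENCODE 29. The window of ID1 and the windows of TGFBR2 held none of the SMAD motifs. Members with and without these letters were thus found among those that moved in each direction.

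Beyond the members, 124 other genes of the pathways in 9 lists were looked up by name, 4 of them under older symbols from RefSeq. Of these, 82 were tested, 21 called higher and 10 lower (limma, adjusted over all tested genes), shares of 25.6% and 12.2% beside 19.2% and 22.7% of all tested genes. Those called higher include INHBE, which passed the filter only through the DCC-2036 libraries. The counts of single lists below are to be read beside the same 19.2% and 22.7%. The median log2 fold change of the 82 genes was 0.24, against -0.09 over all tested genes. Scaling to equal column totals moved the median of all genes by -0.19 and the share of higher genes among all called genes from 45.8% to 33.6%. Under that scaling the log2 fold change of ID2 was 0.23 (adjusted p = 0.0896, limma).

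Among the other ligands 10 of 27 were tested, with a median of -0.27, and 2 were called higher and 2 lower. AMH, a hormone of the family, rose from 123 ± 21.6 (SD, n = 3) to 357 ± 48.7 (log2 fold change 1.54, adjusted p = 0.000735, limma). GDF11 fell from 243 ± 20.2 to 89.5 ± 18.2 (-1.45, adjusted p = 0.000999, limma) and so did BMP6, which reached at most 28.0 in DCC-2036 (-1.21, adjusted p = 0.00166, limma). INHBE, at 5.66, 4.35 and 4.59 against 11.4, 10.9 and 14.0, passed the filter only through the DCC-2036 libraries, and so had to differ. With a trend in limma it was not called (adjusted p = 0.0271). The ligands called were thus of different branches and did not include the abundant BMP4 and TGFB1.

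Of the receptors and co-receptors 12 of 18 were tested, 5 called higher and 2 lower, with a median of 0.29. TGFBR3, a co-receptor of TGF-beta, had 228 ± 13.1 in Control and 519.8 ± 40.7 in DCC-2036 (log2 fold change 1.19, adjusted p = 0.000445, limma). The activin receptors did not move together, as ACVR1B rose (1.10, adjusted p = 0.000479, limma) and so did ACVR2A (1.15, adjusted p = 0.000999, limma), whereas ACVR2B fell from 473 ± 24.1 to 235 ± 10.7 (-1.01, adjusted p = 0.000534, limma).

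The receptor SMADs with the common SMAD, 6 genes, were all tested, with 3 called higher and 1 lower. SMAD1 and SMAD5, of the BMP branch, had log2 fold changes of 0.57 (adjusted p = 0.00457, limma) and 0.95 (adjusted p = 0.00464, limma). SMAD2 rose (0.82, adjusted p = 0.0028, limma) and SMAD3, its partner in the TGF-beta branch, fell from 1187 ± 93.4 to 765 ± 92.3 (-0.64, adjusted p = 0.00642, limma). Each of these 4 calls ended when Control replicate 1, 2 or 3 or DCC-2036 replicate 2 was left out. The adjusted p-values (limma) were then, in that order, 0.0138, 0.0149, 0.0149 and 0.0151 for SMAD2, 0.0219, 0.0255, 0.0183 and 0.0225 for SMAD1, 0.0196, 0.0181, 0.0218 and 0.0186 for SMAD5 and 0.0287, 0.0172, 0.03 and 0.0183 for SMAD3. In these 4 settings the calls over all genes also fell, from 2442 higher and 2887 lower in the main fit. They were 968 and 1571, 942 and 1502, 965 and 1534, and 929 and 1650 in that order. The log2 fold changes stayed between 0.79 and 0.83 for SMAD2 and between 0.50 and 0.59 for SMAD1. They stayed between 0.91 and 0.98 for SMAD5 and between -0.70 and -0.60 for SMAD3. Calls given below that ended in these settings stand beside the same fall. A replicate block also ended all 4 calls (adjusted p = 0.012 for SMAD2, 0.0193 for SMAD1, 0.0154 for SMAD5 and 0.024 for SMAD3, limma). So did testing without a filter for SMAD1, SMAD5 and SMAD3 (adjusted p = 0.0112, 0.0113 and 0.0148, limma), and scaling to equal totals for SMAD1 (0.38, adjusted p = 0.0203, limma).

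Of the secreted antagonists 5 of 18 were tested, with 0 called higher and 2 lower. Both were follistatin-like genes, FSTL1 (-0.72, adjusted p = 0.00106, limma) and FSTL3 (-0.60, adjusted p = 0.00329, limma). TWSG1 and CHRD had log2 fold changes of 0.46 (adjusted p = 0.0143, limma) and 0.45 (adjusted p = 0.0388, limma), outside the limit. The call of FSTL3 ended without Control replicate 1, 2 or 3 or DCC-2036 replicate 2 (adjusted p = 0.0159, 0.0184, 0.0182 and 0.0187, limma), and CHRD was called without DCC-2036 replicate 1 (0.59, adjusted p = 0.0039, limma). With a trend in limma TWSG1 was called (adjusted p = 0.00553), and so was LTBP3 of the next list (adjusted p = 0.00708). Of the genes of latency and activation, 8 of 11 were tested and 1 was called, ITGB8, a subunit of an integrin that releases TGF-beta, which went from 445 ± 62.9 to 96.0 ± 22.8 (-2.22, adjusted p = 0.000416, limma). LTBP3 (0.61, adjusted p = 0.0217, limma), LTBP2 (-0.49, adjusted p = 0.0451, limma) and ITGAV (-0.31, adjusted p = 0.0578, limma) were not called.

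Of the intracellular regulators other than members, all 19 were tested, 5 called higher and 2 lower. FKBP1A, which binds type I receptors and keeps them quiet, had 4068 ± 89.0 in Control and 8815 ± 1228 in DCC-2036 (log2 fold change 1.11, adjusted p = 0.000866, limma). ZFYVE9, an anchor that brings SMAD2 and SMAD3 to the receptor, had a log2 fold change of 0.88 (adjusted p = 0.00104, limma). STRAP, which stabilises SMAD7 at the receptor, had 0.91 (adjusted p = 0.00238, limma), and PPM1A, a phosphatase of receptor SMADs, had 1.01 (adjusted p = 0.00323, limma). Leaving out Control replicate 1, 2 or 3 or DCC-2036 replicate 2 ended the calls of STRAP (adjusted p = 0.0132, 0.0126, 0.0115 and 0.0125, limma) and PPM1A (adjusted p = 0.0164, 0.0115, 0.0166 and 0.0153, limma). The 2 called lower were SKIL, given with the TGF-beta targets, and TGIF2, a SMAD corepressor named after the values had been seen because its change was the largest of the list. TGIF2 had 232, 214 and 274 in Control against 103, 65.0 and 35.1 in DCC-2036 (-1.93, adjusted p = 0.00491, limma). Its call ended without Control replicate 1, 2 or 3 or DCC-2036 replicate 2 (adjusted p = 0.0199, 0.0165, 0.0222 and 0.0179, limma), without a filter (adjusted p = 0.0118, limma) and with a replicate block (adjusted p = 0.0151, limma).

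Among textbook targets of TGF-beta and SMAD3, 15 of 16 further genes were tested, 3 called higher and 1 lower, with a median of 0.26. NUAK1, a kinase, rose from 399.5 ± 34.3 to 1307 ± 120.4 (log2 fold change 1.71, adjusted p = 0.000254, limma). SKIL, which represses SMAD transcription and is induced by it, fell from 335 ± 33.5 to 145 ± 38.4 (-1.23, adjusted p = 0.00359, limma). BHLHE40 (0.73, adjusted p = 0.00599, limma) also rose, while 11 were not called. With Control replicate 1, 2 or 3 or DCC-2036 replicate 2 left out, the calls of SKIL (adjusted p = 0.0176, 0.0161, 0.0129 and 0.0118, limma) and BHLHE40 (adjusted p = 0.02, 0.0269, 0.0268 and 0.027, limma) ended. That of BHLHE40 also ended without a filter (adjusted p = 0.014, limma), with a replicate block (adjusted p = 0.0216, limma) and with equal totals (0.54, adjusted p = 0.011, limma).

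Among textbook targets of the BMP branch, 11 of 13 further genes were tested, 2 called higher and 0 lower. ATOH8 had values of 17.8, 14.7 and 27.8 in Control against 177, 171 and 94.9 in DCC-2036, a log2 fold change of 2.81 (adjusted p = 0.000821, limma). MSX1 rose from 2458 ± 202 to 6160.3 ± 694 (1.32, adjusted p = 0.000492, limma). GATA3 (0.57, adjusted p = 0.0452, limma) and GATA2 (0.30, adjusted p = 0.0584, limma) were not called.

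The E proteins, which ID proteins bind, were TCF3, TCF4 and TCF12. TCF12 had 1359 ± 122 in Control and 2793 ± 283 in DCC-2036 (log2 fold change 1.04, adjusted p = 0.000996, limma). TCF3 was not called, at 4678 ± 245 and 3495 ± 668 (-0.44, adjusted p = 0.0519, limma), and neither was ID4 (-0.36, adjusted p = 0.456, limma). TCF4 did not pass the filter.

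For the 3 members with the smallest p-values, the tested genes with a mean of at least 100 and the most similar pattern over the 6 libraries were named, as a description. They were LGMN, ACBD3 and PSMA1 for BAMBI (Pearson r = 0.9999, 0.9993 and 0.9993), PLIN2, PSAT1 and MRS2 for SMAD7 (0.9997, 0.9996 and 0.9995), and MOV10, RELA and MRTO4 for ID3 (0.9996, 0.9994 and 0.9993). The 6 libraries fall into 2 groups, and 291, 356 and 302 of 10206 genes had a correlation of at least 0.99 with BAMBI, SMAD7 and ID3.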

How the data were processed

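RNA of 3 Control and 3 DCC-2036 libraries of LoVo cells was analysed, grouped by the titles in the labels. The authors deposited 1 table with a signal per RefSeq transcript and library, not in whole numbers. It was taken as adjusted to a common depth, though the column totals differ. The aligner, counter, genome build, adjustment method and depth are not given in the sources used here. Further columns from the authors hold the log2 fold change of this comparison with its p-value and q-value for each transcript, and none of them was used.

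From the deposited signal, 1 transcript per symbol was kept, that with the highest mean. Those that reached 10 in 3 or more libraries, 12725 of 19223 symbols, were tested with limma 3.58.1 in R 4.3.3 on log2(value + 1), without covariates, two-sided, with Benjamini-Hochberg adjustment over all tested genes and a limit of 0.01. Fold changes on this scale understate those of low genes. The planned test for read counts was not used, as the table holds no counts. Exact permutation tests used scipy 1.17.1 in Python 3.11.15, figures matplotlib 3.10.9. The limma code was tested on simulated data.

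The genes named were all 10 members, up to 4 genes per list from those with the smallest adjusted p-values, not every one of which is named, and for likeness 3 genes for each of 3 members. TGIF2 was added for the size of its change. TCF4, the epithelial and other marker genes, and the genes that overlap members were named for their place in a list or annotation. The members and lists were chosen with earlier results of these data known. Promoter sequences came from RefSeq (GRCh38.p14) and positions and lengths from GENCODE 29, whose build may differ from that of the table. Alternatives were 3 scalings, 2 filters, a pseudocount of 0.1, limma with a trend, a block for the replicate number, 1 library left out at a time, other limits, and other choices of transcript.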

Additional observations from a re-analysis of the deposited data

How the results depend on the processing

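All 9 tested members kept the direction of their log2 fold change in every setting run, 17 fits with the main one and 2 other limits on it. SMAD7, BAMBI and ID3 also kept their call at an adjusted p-value under 0.01 (limma), and BMP4, TGFB1 and SMAD6 were called in none. TGFBR2 lost its call without Control replicate 2 or 3, with log2 fold changes of 1.34 to 1.79 over the libraries left out. ID1 lost its call with no filter on low values (-0.39), scaling by median of ratios (-0.33) or by upper quartile (-0.37), the sum of all transcripts (-0.38), and calls only from an absolute log2 fold change of 1 on (-0.39), and its range over the libraries left out was -0.41 to -0.39. In these settings, and without any 1 library other than DCC-2036 replicate 3, 1 member was called lower instead of 2. ID2 gained a call with the filter in all 6 libraries (0.42), limma with a trend (0.42), scaling by median of ratios (0.48) or upper quartile (0.44), a limit of 0.05 (0.42), and without DCC-2036 replicate 3, and lay between 0.38 and 0.46 over the libraries left out. Leaving out 1 library gave log2 fold changes of -0.45 to -0.21 for BMP4, -0.27 to -0.09 for TGFB1 and -0.53 to -0.04 for SMAD6. Scaling to equal totals gave -0.53, -0.37 and -0.43 for these genes in that order, and 0.23 for ID2, none of them called. The cause was not tested.

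Over all genes, 2442 were called higher and 2887 lower. With all transcripts as separate rows the counts were 6379 and 7250, with calls only from an absolute log2 fold change of 1 on 944 and 1930, and over the libraries left out 929 to 2717 and 1502 to 3444. Of the members' other transcripts, 1 was called lower, against 0, with the filter in all 6 libraries, limma with a trend, a pseudocount of 0.1, scaling to equal totals and a limit of 0.05, and 3 were called higher, against 4, without Control replicate 2 or 3.

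Across all tested genes, the correlation of the deviations from the group mean was 0.081, -0.035 and -0.003 for libraries with an equal replicate number. For single genes replicate 1 of both groups did share high values, as for POSTN, COL3A1, LUM, DCN and SMAD6. With a replicate block, 1202 genes were called higher and 1909 lower, and 1 member lower, as ID1 lost its call (-0.39, adjusted p = 0.0331, limma). No other member's call changed with the block. Among the named genes of the lists, the replicate block also ended the calls of SMAD1, SMAD2, SMAD3, SMAD5, FSTL3 (adjusted p = 0.0139, limma), PPM1A (adjusted p = 0.0103, limma), TGIF2 and BHLHE40. The alternative with another count tool was not run, because it needs read counts. Of the list medians, that of the secreted antagonists ranged from -0.07 to 0.19 and that of the E proteins from -0.56 to 0.30, changing sign in 1 setting each. Depth per library is unknown, so no counting error can be given.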
